A study of Mus musculus with 40 samples.

Results

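Liver RNA of 8 Wt mice was compared across all measured genes: 4 mice that had received 10 µmol/kg CDDO-Im against 4 that had received 300 µmol/kg D3T, with 1 Affymetrix mouse genome array per mouse. These are 8 of the 40 arrays of the study, chosen by the dose, compound and genotype in their titles. All mice were male, of the C57BL/6J background and 12 weeks old. They were gavaged every other day, 3 times over 5 days, and their livers were taken 24 h after the last dose. Wt mice on vehicle (10% Cremophor-EL and 10% DMSO in PBS) or on 3 or 30 µmol/kg CDDO-Im are shown beside them as values, and Nrf2-null mice on the same compounds, whose Nrf2 gene is disrupted in every tissue, are set against them at the end, with 4 mice in each group. The compounds were given at different doses, which the study took as equally efficacious on Nrf2 target genes, so each difference below is between these doses and not between the compounds at 1 dose.

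D3T is a small sulfur heterocycle, a dithiolethione, and CDDO-Im is the imidazolide of a synthetic oleanane triterpenoid. Both modify cysteines of Keap1, the protein that otherwise holds Nrf2 in the cytosol and delivers it for degradation. Nrf2 that escapes Keap1 pairs with small Maf proteins on antioxidant response elements and raises the transcription of enzymes that reduce, conjugate and export reactive compounds. Liver is also the main site of cholesterol and fatty acid synthesis, and much of its lipid and glucose metabolism follows the circadian clock and feeding.

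Levels are log2 intensities, so a difference of 1 is a doubling, and differences are CDDO-Im minus D3T throughout. A gene is said to be higher or lower with CDDO-Im when its difference in limma had a Benjamini-Hochberg adjusted p under 0.05 over the 9695 genes tested. By this rule 1809 genes (18.7%) differed, of which 472 (4.87%) were higher and 1337 (13.8%) were lower with CDDO-Im, and most of these differences were small: 42 of the higher genes (0.433% of those tested) and 109 of the lower ones (1.12%) differed by a factor of 2 or more. For 6031 genes (62.2%) the 95% confidence interval lay within 1.5-fold in both directions. The 4 mice of one group lay entirely above the 4 of the other for 2217 genes (22.9%), 649 of them higher with CDDO-Im (6.69%) and 1568 lower (16.2%). The median difference of all genes was −0.09. After each array was centred on its median, 714 genes were higher and 886 lower (44.6% of calls higher, against 26.1% as deposited). Without Wt CDDO-Im 10 replicate 1, whose array had the lowest median of the 8 (7.57, the others 7.64 to 7.80), 1154 genes passed. The animal numbers of the D3T mice and of the CDDO-Im mice fell in separate runs, so animal number and compound cannot be told apart. Numbers of the vehicle and 3 µmol/kg CDDO-Im mice lay near those of the 10 µmol/kg mice, and those of the 30 µmol/kg mice followed D3T. Neither D3T against vehicle nor 10 against 30 µmol/kg CDDO-Im can thus be told apart from animal number. Against vehicle, which serves both compounds, 410 genes (4.23%) differed with D3T (2.64% higher and 1.59% lower) and 1698 (17.5%) with CDDO-Im (5.06% higher and 12.4% lower). Values against vehicle are given below for the members only and share the same 4 vehicle mice.

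**Figure D1:**
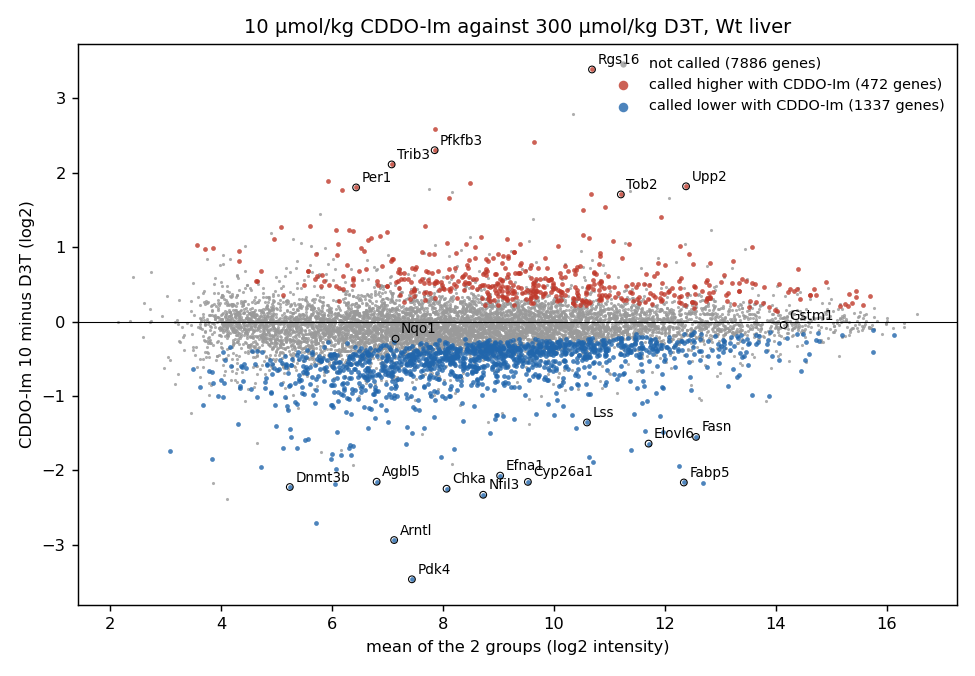
Difference between 10 µmol/kg CDDO-Im and 300 µmol/kg D3T (vertical axis, log2) against the mean level of both groups (horizontal axis, log2 intensity) for the 9695 genes tested, 1 point per gene. Rgs16 lies at the top at 3.38 and Pdk4 at the bottom at −3.46, while Nqo1 and Gstm1 lie near 0.

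For the reference genes of the Nrf2 response the mice of the 2 compounds overlapped. The study had matched the doses on the RNA of Nqo1 and Gsta2 and checked the match on NQO1 protein. Overlap at Nqo1 and Gsta2 thus followed from the choice of doses and is not independent evidence. The study showed Gstm1, Gstm3, Cbr1 and Abcc4 from these arrays, among genes that responded to both compounds. Their overlap is not independent evidence either. Nqo1, the quinone reductase used as the reference target of Nrf2, read 7.1, 6.67, 6.99 and 8.28 in the D3T mice and 7.63, 6.83, 6.95 and 6.71 in the CDDO-Im mice, against 4.98, 4.43, 4.69 and 4.79 with vehicle. The 2 treated groups overlapped and all 8 mice lay above vehicle. Its difference between the compounds was −0.23 (95% confidence interval −0.88 to 0.42, adjusted p = 0.67). Gstm3, a glutathione S-transferase, read 13.06, 13.5, 12.73 and 12.69 with D3T and 13.59, 13.09, 13.04 and 12.21 with CDDO-Im (difference −0.01, interval −0.72 to 0.69, and −0.97 with adjusted p = 0.092 on a second probe set). For its relative Gstm1 the difference was −0.05 (−0.49 to 0.40), for Gsta2, an alpha-class transferase, 0.03 (−0.69 to 0.74), for Cbr1, a carbonyl reductase, −0.27 (−0.77 to 0.23), and for Abcc4, a pump for conjugates, 0.17 (−0.44 to 0.78). None of the 6 passed the test, but among them the interval excluded a 1.5-fold difference in both directions only for Gstm1. That holds for the Gstm1 probe set used here. Its other probe sets gave 0.61 (adjusted p = 0.064), 0.44 (adjusted p = 0.11) and 0.02 (adjusted p = 0.97). Nfe2l2, which encodes Nrf2, differed by 0.11 (−0.22 to 0.43) and Keap1 by 0.10 (−0.07 to 0.27). A second Nfe2l2 probe set, of lower mean signal, gave 0.86 (adjusted p = 0.02).

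Abundant genes of the same pathways were the best resolved. Mgst1, a microsomal glutathione transferase, read 15.94 to 16.02 in the D3T mice and 15.91 to 16.05 in the CDDO-Im mice, a difference of −0.02 (−0.10 to 0.06), and Txn1, thioredoxin, differed by −0.01 (−0.15 to 0.12). Both had already been at these levels, or close to them, with vehicle (means of 15.96 and 14.3). A second Mgst1 probe set gave 0.30 (adjusted p = 0.26). Of 23 measured genes for conjugation and reduction, 2 were higher and 3 lower with CDDO-Im (1 lower without Wt CDDO-Im 10 replicate 1 or 4 or Wt D3T replicate 1 or 2), with a median difference of 0.01 and 7 intervals within 1.5-fold. Of 12 genes for glutathione and thioredoxin, 1 was higher (Gss, median of the list 0.09, 8 intervals within 1.5-fold). Of 9 exporters of conjugates, 1 was higher (Abcc2, median of the list 0.07). The shares of all genes tested were 4.87% higher and 13.8% lower, as above, with a median of −0.09.

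**Figure D2:**
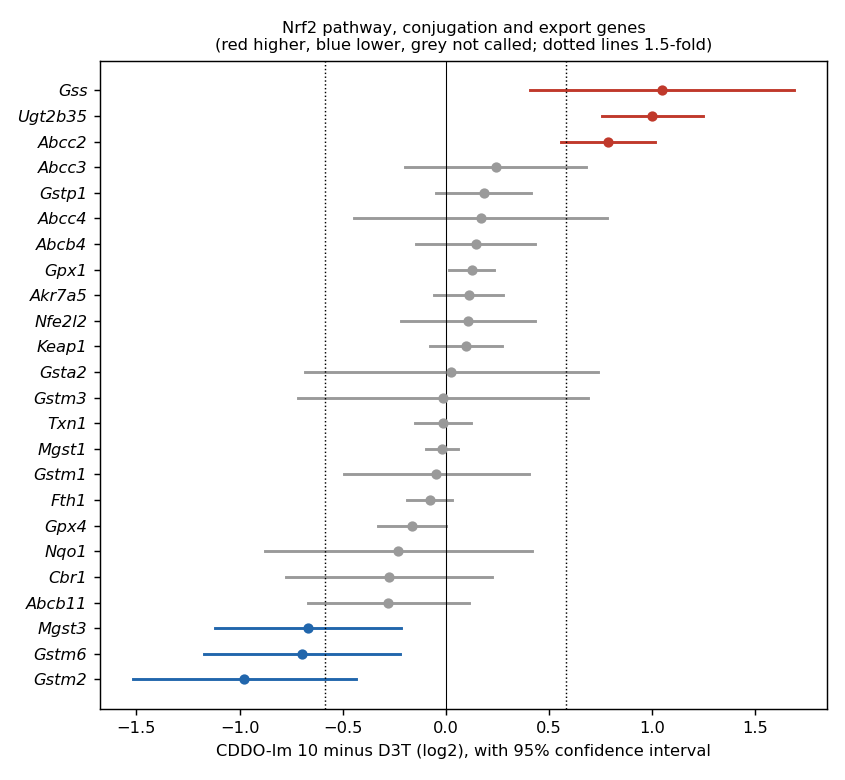
Difference between CDDO-Im and D3T (log2, point) with its 95% confidence interval (bar) for genes of the Nrf2 pathway, conjugation, glutathione and export in Wt liver, from 4 mice per group. Gss, Ugt2b35 and Abcc2 lie above 0 and Gstm2, Gstm6 and Mgst3 below it, while Nqo1, Gstm1, Gstm3 and Gsta2 straddle it.

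A few detoxification genes did part the compounds. Ugt2b35, a UDP-glucuronosyltransferase, read 13.02, 13.05, 13.09 and 13.07 with D3T and 14.24, 14.05, 13.95 and 14 with CDDO-Im. The groups were far apart, and the 4 vehicle mice (13.55 to 13.75) lay between them. Its difference was 1.00 ± 0.12 (SE, adjusted p = 1.8e-06), with D3T below vehicle by 0.57 (adjusted p = 0.0054) and CDDO-Im above it by 0.43 (adjusted p = 0.013). Abcc2, the canalicular pump that exports glucuronide and glutathione conjugates into bile, read 12.18, 12.59, 12.38 and 12.5 with D3T and 13.24, 13.24, 13.1 and 13.22 with CDDO-Im. The D3T mice sat with vehicle (12.1 to 12.46) and the CDDO-Im mice above both, a difference of 0.78 ± 0.11 (adjusted p = 2.8e-05). Ugdh, which makes the UDP-glucuronic acid used by the glucuronosyltransferases, was the other gene of the conjugation list that was higher with CDDO-Im, by 0.55.

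A group of named transferases differed the other way. Gstm2 read 11.51, 11.64, 10.4 and 11 with D3T and 9.98, 10.01, 10.88 and 9.78 with CDDO-Im, with 1 CDDO-Im mouse inside the D3T range. The difference was −0.98 ± 0.27 (adjusted p = 0.01, and 0.052 without Wt D3T replicate 2), and both groups were above vehicle, by 1.98 and 1.01. Mgst3, a microsomal transferase, fell by 0.67 on the log2 scale from D3T to CDDO-Im (adjusted p = 0.033) with no overlap between the groups, and Gstm6 by 0.70. The Mgst3 call was lost when Wt CDDO-Im 10 replicate 1 or 4 or Wt D3T replicate 1 or 3 was left out (adjusted p up to 0.095) and when the arrays were centred. Gss, glutathione synthetase, was higher with CDDO-Im by 1.05 (adjusted p = 0.019), at 7.61, 7.49, 8.18 and 8.28 against 8.77, 9.07, 9.02 and 8.89, and this rested on Wt D3T replicates 1 and 2 (adjusted p up to 0.072 without either). A second Gss probe set gave 0.37 (adjusted p = 0.44), and the mean of both did not pass (0.71, adjusted p = 0.1). Pgd, which makes NADPH in the pentose phosphate pathway, was lower with CDDO-Im, 12.0, 11.86, 11.69 and 11.55 against 11.06, 10.99, 11.05 and 10.79. That is a difference of −0.80 ± 0.20 (adjusted p = 0.0066), and its 3 other probe sets gave −0.77, −0.81 and −0.71. Of 7 NADPH-supplying enzymes it and Mthfd1 were lower. The other probe sets of Mthfd1 did not share this direction, at −0.03 (adjusted p = 0.87) and 0.27 (adjusted p = 0.012).

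Cholesterol synthesis from squalene onwards was lower with CDDO-Im at 4 of 11 measured enzymes (36.4%, against 13.8% of all genes), and the differences of all 11 were below 0, with a median of −0.58. Lss, which cyclizes squalene epoxide to lanosterol, read 11.41, 11.23, 10.66 and 11.79 with D3T and 9.88, 9.92, 9.73 and 10.14 with CDDO-Im. The CDDO-Im mice lay much nearer to vehicle (9.04 to 9.61) than to D3T. Its difference was −1.35 ± 0.36 (2.56-fold, adjusted p = 0.0088), D3T was above vehicle by 1.83 (adjusted p = 0.0027), and CDDO-Im by 0.47 (adjusted p = 0.39). Fdft1, squalene synthase, differed by −0.98 (adjusted p = 0.027), Tm7sf2, a sterol reductase, by −0.50 (adjusted p = 0.0098) and Ebp, a sterol isomerase, by −0.48 (adjusted p = 0.003). Without Wt CDDO-Im 10 replicate 1, 2 or 3 or Wt D3T replicate 2 or 4 the Fdft1 call was lost (adjusted p up to 0.077), and without Wt D3T replicate 1 that of Tm7sf2 (0.055). Cyp51, which removes the methyl group from lanosterol, read 12.88, 12.78, 12.63 and 13.29 with D3T and 12.29, 12.31, 12.38 and 12.76 with CDDO-Im, a difference of −0.46 (−1.20 to 0.28, adjusted p = 0.41). The study singled out cholesterol synthesis on these arrays, so the direction here is not independent evidence. By qPCR and immunoblot it also reported that D3T raised Lss and Cyp51 and CDDO-Im did not.

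The earlier mevalonate and isoprenoid steps gave 0 calls among 7 enzymes with limma (2 lower at an unadjusted p under 0.05, and 3 lower by the exact Wilcoxon test with a 1.5-fold minimum), although 6 differences were below 0 (median −0.58) and 5 enzymes had no overlap between the groups, which was so for 16.2% of all genes in that direction. Mvd, which makes isopentenyl pyrophosphate, had the largest difference of these. It read 9.43, 9.34, 8.39 and 9.33 with D3T, and 6.69, 7.46, 6.98 and 7.71 with CDDO-Im, where vehicle was 7.24 to 7.75. The fit across all genes gave −1.92 ± 0.72 (adjusted p = 0.06). A second Mvd probe set gave −2.20 (adjusted p = 0.0088). The first passed in a fit to the 8 arrays alone (adjusted p = 0.0025), to the 20 Wt arrays (0.00027) and with array weights (0.0039), and Cyp51 passed in the 20 Wt arrays (0.029). The shared fit takes its spread from Nrf2-null mice as well, where Mvd read 8.45, 8.81, 9.34 and 3.91 with D3T and Cyp51 12.06, 12.21, 12.49 and 9.33. Nrf2-null D3T replicate 4 was the low one for both genes, and both fits limited to Wt arrays leave it out together with the other Nrf2-null arrays.

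Fatty acid synthesis was lower with CDDO-Im at 9 of 21 measured genes (42.9%), with a median difference of −0.66 and 20 differences below 0. Leaving out Wt D3T replicate 2 reduced the 9 to 5. Acaca, acetyl-CoA carboxylase, which makes the malonyl-CoA from which chains are built, read 9.84, 9.73, 9.77 and 9.06 with D3T and 8.45, 8.4, 8.29 and 8.0 with CDDO-Im. All 4 CDDO-Im mice fell within the vehicle range of 7.9 to 8.62 and no D3T mouse did. Its difference was −1.32 ± 0.22 (adjusted p = 0.00018), but a second probe set gave 0.16 (adjusted p = 0.68). Fasn, fatty acid synthase, read 13.13, 13.49, 13.62 and 13.09 with D3T and 12.07, 11.97, 11.8 and 11.3 with CDDO-Im, a difference of −1.55 ± 0.47 (adjusted p = 0.021, up to 0.067 without Wt CDDO-Im 10 replicate 4 or Wt D3T replicate 2 or 3). Elovl6, the elongase that turns palmitate into stearate, differed by −1.64 ± 0.36 (adjusted p = 0.0023), with 1 of its other probe sets at −1.46 and the other at 0.15. Gpam, which starts triglyceride assembly on glycerol phosphate, differed by −1.01 ± 0.26 (adjusted p = 0.0079), and by −0.36 (adjusted p = 0.071) on a second probe set. Srebf1, the transcription factor that drives these genes, did not pass the test at −0.53 (−1.12 to 0.07, adjusted p = 0.21).

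Genes of the lipid droplet and its lipases were lower with CDDO-Im at 6 of 14 (42.9%, 3 without Wt D3T replicate 2). Mgll, monoglyceride lipase, read 11.12, 11.53, 11.01 and 10.75 with D3T and 9.74, 10.16, 10.34 and 10.25 with CDDO-Im (−0.98 ± 0.19, adjusted p = 0.00073). Plin5, a droplet coat protein of oxidative tissues, read 10.78, 11.16, 10.54 and 10.94 with D3T and 9.41, 9.93, 10.39 and 10.29 with CDDO-Im. Here the D3T mice sat near vehicle (10.89 to 11.38), and the CDDO-Im mice lay below, with a difference of −0.85 ± 0.19 (adjusted p = 0.0024). Cd36, the fatty acid transporter, was the reverse: D3T was above vehicle by 1.18 (adjusted p = 0.002) and CDDO-Im by 0.34 (adjusted p = 0.31), a difference of −0.83 (adjusted p = 0.0097, and 0.055 without Wt D3T replicate 2). G0s2, an inhibitor of adipose triglyceride lipase, read 11.86, 11.66, 11.47 and 11.2 with D3T and 7.89, 11.07, 10.0 and 9.96 with CDDO-Im. Its difference of −1.82 (adjusted p = 0.028) rested on the mice, with an adjusted p up to 0.17 when Wt CDDO-Im 10 replicate 1 or Wt D3T replicate 1, 2 or 3 was left out.

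Among 16 peroxisomal and omega oxidation genes 3 (18.8%) were lower with CDDO-Im, near the 13.8% of all genes. There was 1 without Wt CDDO-Im 10 replicate 1 or 2 or Wt D3T replicate 1, 2 or 3, and 1 once the arrays had been centred or normalized again. Crat, which moves acetyl groups onto carnitine, differed by −1.02 ± 0.20 (adjusted p = 0.00087), at 8.02, 7.9, 8.13 and 7.41 against 6.7, 6.43, 7.04 and 7.19. A second Crat probe set gave −0.42 (adjusted p = 0.1). Acot3, a peroxisomal thioesterase, was well above vehicle (4.29 to 5.23) with both compounds, at 8.96, 9.7, 8.25 and 8.61 with D3T and 7.17, 7.11, 6.58 and 7.4 with CDDO-Im. Its difference of −1.82 just passed the test (adjusted p = 0.048) and did not when any 1 of the 8 mice was left out (0.052 to 0.15). The third was Acot8. Of 17 genes of mitochondrial β-oxidation, 3 (Cpt2, Acadvl and Decr1; 17.6%) were lower, near the 13.8% of all genes, with a median of −0.20. This became 1 once the arrays had been centred or without Wt D3T replicate 3, and 5 without Wt CDDO-Im 10 replicate 3 or Wt D3T replicate 4.

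Of 15 regulators of lipid metabolism 3 were higher with CDDO-Im (against 4.87% of all genes; 1 without Wt D3T replicate 1). The other 12 did not pass, and 6 of the 15 differences were below 0. Klf13, a Krüppel-like factor, read 8.27, 8.66, 8.67 and 8.56 with D3T and 9.13, 9.34, 9.38 and 9.94 with CDDO-Im, and vehicle (8.16 to 8.84) overlapped D3T alone. Its difference was 0.91 ± 0.24 (adjusted p = 0.0075). Ppargc1b, a coactivator of mitochondrial and lipogenic genes, read 6.66, 7.33, 7.5 and 6.68 with D3T and 7.97, 8.83, 7.78 and 8.71 with CDDO-Im, a difference of 1.28 ± 0.36 (adjusted p = 0.014). At 30 µmol/kg CDDO-Im its mean was 6.63, below vehicle at 7.16. Lpin1, a phosphatidate phosphatase and coactivator, differed by 1.41 ± 0.48 (adjusted p = 0.037), with 1 mouse of overlap, at 10.63, 10.8, 11.26 and 12.24 against 12.75, 11.41, 12.88 and 13.53. Without Wt CDDO-Im 10 replicate 2 or Wt D3T replicate 1 Ppargc1b did not pass (adjusted p up to 0.052), and Lpin1 passed only without Wt CDDO-Im 10 replicate 2 or Wt D3T replicate 4 (up to 0.14 without the others). Ppara, the nuclear receptor of fatty acid oxidation, differed by 0.59 (0.15 to 1.04, adjusted p = 0.056) and passed when the arrays were centred or normalized again (adjusted p from 0.024 to 0.16 when 1 mouse was left out). Its other probe sets gave 0.17 (adjusted p = 0.65) and 0.035 (adjusted p = 0.95). The study singled out Klf13, Ppargc1b, Lpin1 and Ppara on these mice, so their direction on these arrays is not independent evidence. It also measured the 4 genes by qPCR in 2 independent experiments.

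Pyruvate and glucose genes held the largest fall among the genes tested. Pdk4, the kinase that shuts pyruvate dehydrogenase during fasting, read 9.56, 9.95, 9.02 and 8.14 with D3T and 5.34, 6.37, 5.73 and 5.38 with CDDO-Im. The 4 CDDO-Im mice lay below every mouse of vehicle (7.59 to 9.91) and of D3T, and the mean at 30 µmol/kg was back at 8.47. The difference was −3.46 ± 0.66 (11-fold, adjusted p = 0.0007). Pfkfb3, which makes the fructose bisphosphate that speeds glycolysis, was the reverse, at 6.35, 7.06, 6.39 and 7.0 with D3T and 8.47, 7.92, 9.79 and 9.83 with CDDO-Im (2.30 ± 0.49, adjusted p = 0.0016). Of 16 genes for glycolysis and pyruvate, Pfkfb3 alone was higher and 6 were lower, among them Ldha, lactate dehydrogenase, by 0.46 (adjusted p = 0.0023), and Pdha1, a subunit of pyruvate dehydrogenase, by 0.39 (adjusted p = 0.0051). Igfbp1, a binding protein for insulin-like growth factors that insulin represses, read 14.29, 13.23, 13.79 and 13.73 with D3T and 12.86, 11.39, 10.95 and 11.19 with CDDO-Im, but the vehicle mice ranged from 10.31 to 14.65. Its difference was −2.16 ± 0.67 (adjusted p = 0.022, up to 0.067 without Wt D3T replicate 1 or Wt CDDO-Im 10 replicate 2, 3 or 4).

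**Figure D3:**
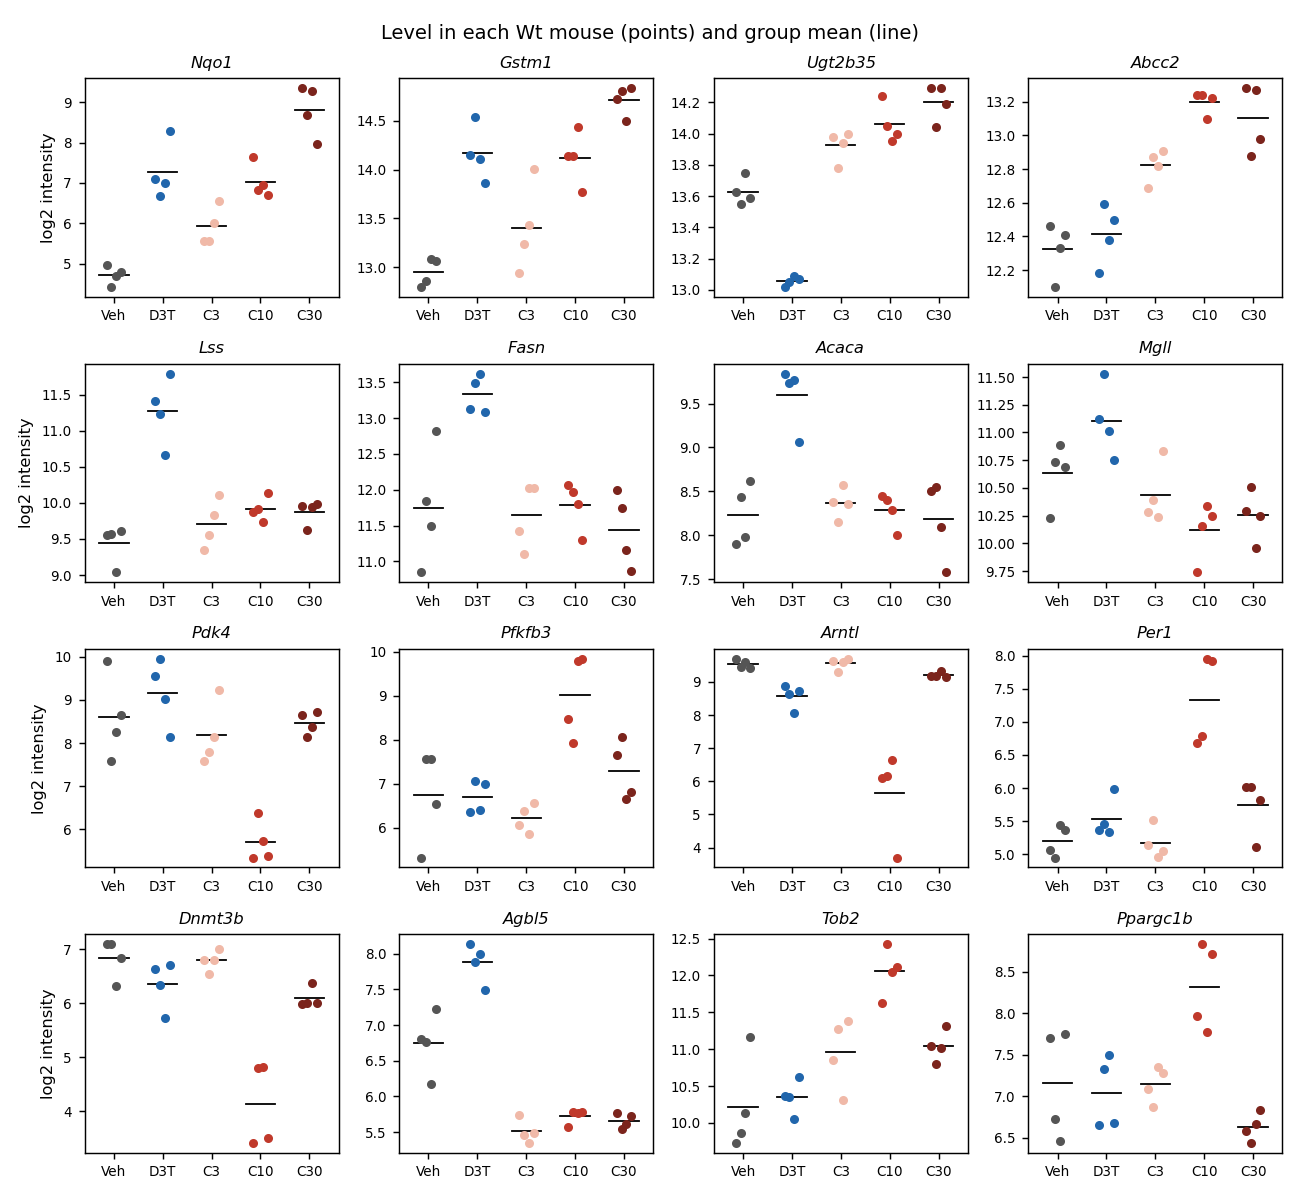
Log2 intensity of 16 genes in each Wt mouse (points) with the group mean (line), for vehicle (Veh), 300 µmol/kg D3T, and 3, 10 and 30 µmol/kg CDDO-Im (C3, C10, C30), 4 mice per group. Nqo1 and Gstm1 lie at like levels with D3T and C10, Lss, Fasn and Acaca are high with D3T, and Pdk4, Arntl and Dnmt3b are low with C10 and not with C30.

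The liver clock is a loop in which Arntl (Bmal1) and Clock drive E-boxes, the period and cryptochrome proteins oppose them, and RORs and REV-ERBs act on response elements (RORE) in Arntl itself. Of 6 measured genes that peak around the morning, 2 were lower with CDDO-Im (Arntl and Nfil3), and of 8 that peak around the evening 2 were higher (Per1 and Usp2), where 13.8% of all genes were lower and 4.87% higher. All 8 evening differences were above 0 (median 1.245) and 5 of the 6 morning ones below it (median −1.537). In each list 4 genes had no overlap in that direction, against 6.69% (higher) and 16.2% (lower) of all genes. Against vehicle, 6 evening genes were higher with CDDO-Im (5.06% of all genes) and 5 morning genes lower (12.4%). With D3T these were 1 (2.64%) and 0 (1.59%). The median differences from vehicle had the same direction with both compounds. They were 2.484 (evening) and −2.697 (morning) with CDDO-Im and 1.073 and −0.86 with D3T. Arntl read 8.89, 8.64, 8.07 and 8.74 with D3T and 6.1, 6.15, 6.65 and 3.7 with CDDO-Im, where vehicle was 9.42 to 9.68. The CDDO-Im mice were apart from all other Wt mice, and the mean at 30 µmol/kg was 9.21. The difference was −2.93 ± 0.64 (adjusted p = 0.0021), and a second probe set gave −0.56 (adjusted p = 0.097). Nfil3, a repressor of the D-box, read 10.28, 9.63, 10.04 and 9.59 with D3T and 7.13, 7.87, 7.73 and 7.5 with CDDO-Im (−2.33 ± 0.40, adjusted p = 0.00025). Per1, a period gene that also answers glucocorticoids and cAMP, read 5.37, 5.45, 5.34 and 5.98 against 6.68, 6.79, 7.95 and 7.92 (1.80 ± 0.43, adjusted p = 0.004). Usp2, a ubiquitin protease under clock control, read 5.11, 8.19, 5.99 and 6.99 against 8.13, 8.86, 9.01 and 10.6, with an overlap. Its difference was 2.58 (adjusted p = 0.039), and did not pass without Wt CDDO-Im 10 replicate 2, 3 or 4 or Wt D3T replicate 1 or 3 (up to 0.14). At what hour each group was killed is not stated in the labels or methods.

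Promoter letters were read from RefSeq (GRCm38.p6) as the 300 bases around each start, most of them upstream, which gave 10205 promoters for 7940 of the 9695 genes. Those shown were picked because they carry, for the genes just described, the letters of the elements by which the clock and Nrf2 act. Capitals mark the RORE (TAGGTCA) of Arntl, at chr7:113207261-113207560 on the plus strand, the E-box (CACGTG) of Pfkfb3, at chr2:11502041-11502340 on the minus strand, and the antioxidant response element core (TGACNNNGC) of Usp2, at chr9:44084670-44084969 on the plus strand.
Arntl: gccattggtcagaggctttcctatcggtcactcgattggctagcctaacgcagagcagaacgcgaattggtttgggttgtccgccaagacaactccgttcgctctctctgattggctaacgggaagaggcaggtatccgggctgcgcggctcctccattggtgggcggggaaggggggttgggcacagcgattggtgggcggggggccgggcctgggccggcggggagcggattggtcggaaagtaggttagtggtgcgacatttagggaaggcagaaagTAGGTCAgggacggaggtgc
Pfkfb3: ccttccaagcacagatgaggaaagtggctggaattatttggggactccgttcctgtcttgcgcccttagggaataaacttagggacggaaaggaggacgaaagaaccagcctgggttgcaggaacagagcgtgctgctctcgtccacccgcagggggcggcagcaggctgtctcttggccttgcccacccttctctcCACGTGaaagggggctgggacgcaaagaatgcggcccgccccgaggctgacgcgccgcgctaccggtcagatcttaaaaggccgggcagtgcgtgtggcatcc
Usp2: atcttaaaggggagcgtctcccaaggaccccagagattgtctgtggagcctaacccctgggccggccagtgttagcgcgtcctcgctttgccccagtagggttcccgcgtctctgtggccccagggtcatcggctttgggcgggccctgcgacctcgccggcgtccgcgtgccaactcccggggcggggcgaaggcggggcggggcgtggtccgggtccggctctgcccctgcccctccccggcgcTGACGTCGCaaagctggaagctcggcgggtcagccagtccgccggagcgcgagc
The matches start at 30, −53 and −4 relative to the start site. Arntl and Pfkfb3 each had 2 promoters, and the one not shown lacked the letters. Nfil3 also held the RORE letters, Per1 held the E-box and the antioxidant core in 1 of its promoters, and Abcc2 held the antioxidant core. Abcc4 and Nfe2l2 held the core too. No promoter read for Nqo1, Gsta2, Gstm1, Gstm3, Cbr1, Gss, Ugt2b35 or Gstm2 held it, so the core in this window did not track the reference genes of Nrf2. Searched on both strands, the antioxidant core was in 14.5% of all promoters, in 20.2% of the 501 of genes higher with CDDO-Im and in 13.7% of the 1446 of genes lower with it. The E-box was in 10.2%, 12.6% and 9.2% and the RORE in 2.11%, 1.8% and 2.77% of the same sets. The sterol element TCACCCCAC was in 0.598%, 1.4% and 0.83%, the cAMP element TGACGTCA, which shares its first bases with the antioxidant core, in 2.89%, 2.79% and 3.25%, the D-box TTATGTAA in 0.568%, 0.2% and 0.207%, and the CAAT box CCAAT in 37.5%, 31.9% and 39.7%. These shares are a description, and a match is not a bound site.

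Several of the largest differences fell outside these pathways. Rgs16, which quenches signals of G protein-coupled receptors, read 8.84, 8.53, 9.3 and 9.3 with D3T and 11.82, 12.49, 12.17 and 13.02 with CDDO-Im, the largest rise among the genes tested, and vehicle ranged from 5.14 to 8.69. Its difference was 3.38 ± 0.98 (10.4-fold, adjusted p = 0.015), and its other probe sets gave 3.44 and 4.06. Upp2, a uridine phosphorylase of liver, read 11.14, 11.56, 11.82 and 11.37 against 13.33, 13.16, 12.76 and 13.91 (1.82 ± 0.34, adjusted p = 0.00065). Tob2, an antiproliferative partner of the mRNA deadenylase complex, read 10.36, 10.35, 10.06 and 10.62 against 11.63, 12.42, 12.05 and 12.12 (1.71 ± 0.29, adjusted p = 0.00018), and its other probe sets gave 0.71 to 1.11. The noncoding Hectd2os (2.41, adjusted p = 0.0052) and 9130409I23Rik (1.72, adjusted p = 0.0052) were also among the largest rises. All 5 kept their call without each mouse in turn, and Upp2 and Tob2, like Usp2, Pfkfb3 and Trib3, are on a list that the study drew up from these mice, which is not independent evidence of their direction.

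Among the falls, Agbl5, a carboxypeptidase that trims tubulin tails, had the smallest adjusted p of the named genes (1e-09). It read 8.13, 7.89, 8.0 and 7.49 with D3T and 5.57, 5.78, 5.77 and 5.78 with CDDO-Im, a difference of −2.15 ± 0.18, and the vehicle mice (6.18 to 7.23) lay between the groups. The means at 3 and 30 µmol/kg CDDO-Im, 5.51 and 5.66, were close to that at 10 µmol/kg, 5.73. Its other probe set gave −0.38 (adjusted p = 0.031). Chka, a choline kinase at the head of phosphatidylcholine synthesis, read 9.43, 9.32, 8.71 and 9.27 against 7.08, 7.39, 7.51 and 5.78 (−2.24 ± 0.57, adjusted p = 0.0066). Lonrf3, a LON-domain ring finger protein, read 7.23, 7.46, 6.61 and 7.27 against 4.96, 4.93, 4.98 and 4.99 (−2.18 ± 0.44, adjusted p = 0.0011). A second Lonrf3 probe set gave −0.91 (adjusted p = 0.032).

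Cyp26a1, which degrades retinoic acid, read 10.61, 10.97, 10.49 and 10.36 with D3T and 8.84, 7.76, 8.8 and 8.42 with CDDO-Im, on either side of vehicle (9.12 to 9.75), a difference of −2.15 ± 0.42 (adjusted p = 0.00088). Efna1, an ephrin ligand, differed by −2.07 ± 0.35 (adjusted p = 0.00018) and a second probe set by −2.17. Fabp5, a fatty acid binding protein, read 14.2, 13.84, 13.07 and 12.59 against 11.17, 12.08, 10.76 and 11.04 (−2.16 ± 0.61, adjusted p = 0.013). E2f8, a repressor of the E2F family, differed by −1.98 (adjusted p = 0.012). Fabp5 and E2f8 missed the threshold without Wt D3T replicate 1, at 0.052 and 0.062.

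Genes of stress responses and growth were called in both directions, and their counts are set against the 4.87% of all genes called higher and the 13.8% called lower. Of 15 genes of the amino acid and integrated stress response, Trib3, a pseudokinase that restrains Akt, was higher with CDDO-Im, 6.12, 5.88, 6.08 and 6.0 against 8.22, 8.78, 7.45 and 8.07 (2.11 ± 0.54, adjusted p = 0.0068). Atf5, a stress transcription factor, was lower by 0.89 (adjusted p = 0.0081) and Psph, the last enzyme of serine synthesis, by 0.77 (adjusted p = 0.0025). Of 7 genes of DNA methylation 2 were lower. Dnmt3b, a de novo methyltransferase, read 6.64, 6.33, 5.73 and 6.7 with D3T and 3.41, 4.79, 4.81 and 3.5 with CDDO-Im (−2.22 ± 0.33, adjusted p = 4.3e-05), and Tet2, which oxidizes methylcytosine, differed by −0.65 ± 0.16 (adjusted p = 0.006). Of 14 genes of replication and the cell cycle 4 were lower (Mcm5, Rrm1, Mcm7 and Pcna), and 1 to 4 when single mice were left out, with 1 of them lower without Wt D3T replicate 2 and 2 without Wt CDDO-Im 10 replicate 1 or Wt D3T replicate 1 or 3. Mcm5, a subunit of the replicative helicase, differed by −1.85 ± 0.53 (adjusted p = 0.014).

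Of 37 splicing and RNA-binding proteins 5 were higher (Srrm2, Ddx5, Hnrnpf, Srrm1 and Hnrnpk) and 3 lower (Srsf3, Hnrnpc and Srsf2), against 4.87% and 13.8% of all genes, and without Wt CDDO-Im 10 replicate 2 or Wt D3T replicate 3 there were 3 higher. Srrm2, a scaffold of nuclear speckles, read 11.38, 11.44, 11.46 and 11.1 against 12.04, 11.87, 12.1 and 11.9 (0.63 ± 0.09, adjusted p = 1.5e-05), but its other probe sets gave 0.07 and 0.29. Ddx5, a DEAD-box helicase, differed by 0.57 ± 0.11 (adjusted p = 0.00065), with its other probe sets from 0.00 to 0.67. Srsf3, a splicing factor rich in serine and arginine, differed by −0.72 ± 0.16 (adjusted p = 0.002), with its other probe sets from −1.07 to 0.12.

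Housekeeping complexes were close to equal. All 43 respiratory chain subunits and 31 of 32 proteasome subunits had an interval within 1.5-fold, against 62.2% of all genes. Of the respiratory chain 8 (18.6%, against 13.8% of all genes) were lower and 1 (Uqcrc2) was higher, but after the arrays were centred there was 1 in each direction. Without Wt CDDO-Im 10 replicate 4 or Wt D3T replicate 2 there was 1 lower, without Wt D3T replicate 1 there were 5 and without replicate 3 there were 4. Of 24 ribosomal protein genes 6 were lower, against 13.8% of all genes (1 when centred, 4 when normalized again, and 2 without Wt D3T replicate 1). The widest gap of these was at Rpl14, at 6.06, 5.85, 5.74 and 5.88 against 4.41, 4.69, 4.88 and 5.21 (−1.08 ± 0.18, adjusted p = 0.00018), on a probe set of low signal for a ribosomal protein.

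**Figure D4:**
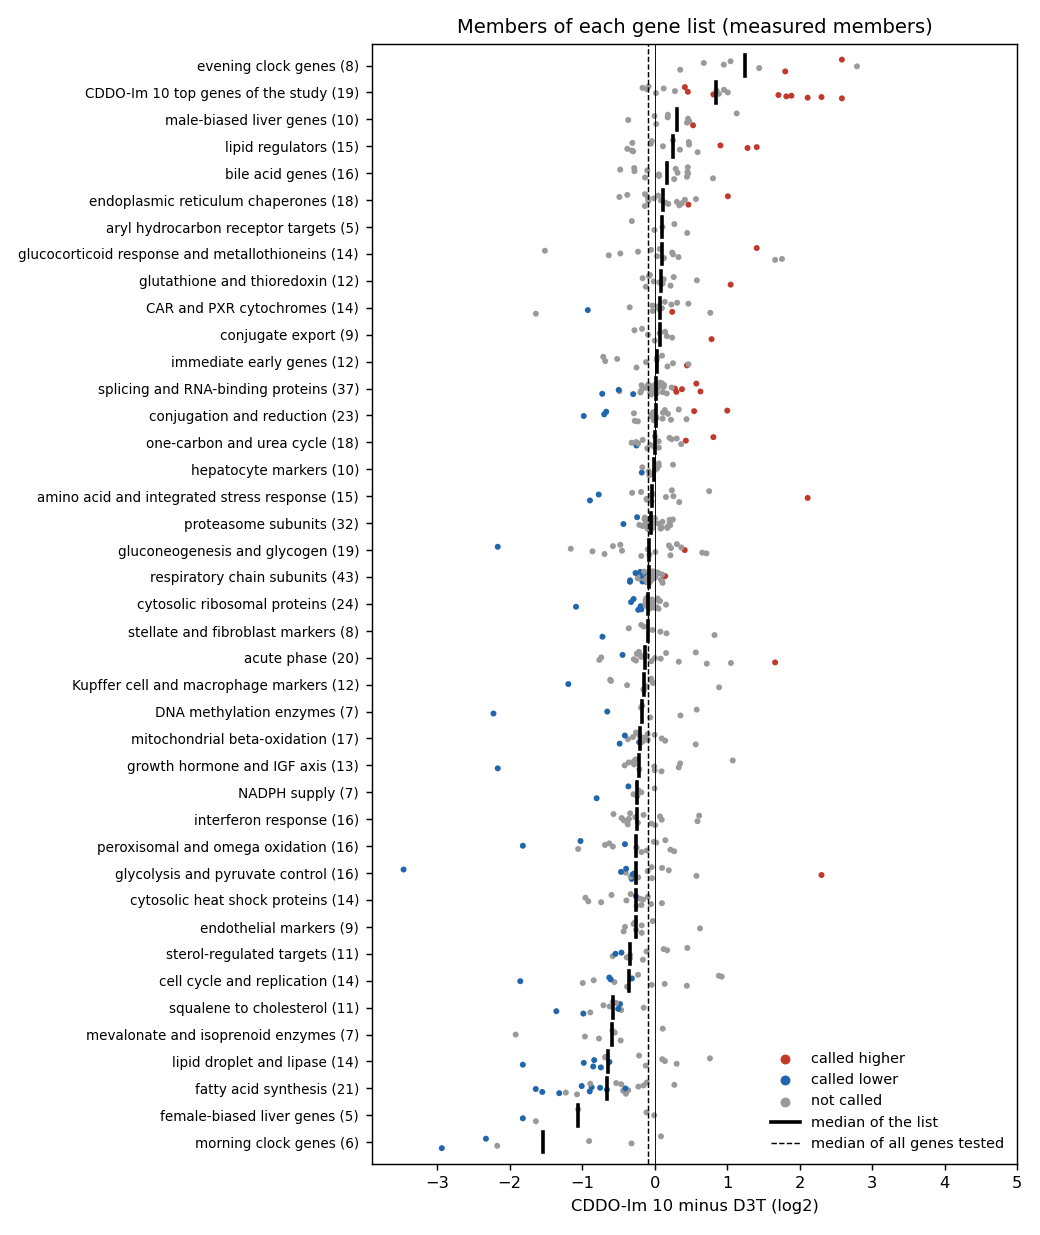
Difference between CDDO-Im and D3T (log2) of each measured member of the gene lists with 5 or more measured members, 1 point per gene, with the median of the list (bar) and of all genes tested (dashed line, −0.09). Fatty acid synthesis and the sterol steps lie to the left, with medians of −0.66 and −0.58, while conjugation, glutathione and export lie near 0.

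The arrays carried liver RNA by their markers. Of 10 hepatocyte markers 1 (Apoa1) was lower, though not once the arrays were centred or without Wt CDDO-Im 10 replicate 1 or Wt D3T replicate 1. All 10 intervals lay within 1.5-fold, and their summed level was log2 19.0 to 19.07 with CDDO-Im and 19.04 to 19.11 with D3T. In a bulk sample fewer cells of a type and less RNA per cell cannot be told apart. Of 12 Kupffer cell markers Cd68, a lysosomal protein of macrophages, was lower, 6.21, 5.75, 5.88 and 5.36 against 4.02, 4.62, 5.15 and 4.67 (−1.19 ± 0.28, adjusted p = 0.0038), while the summed level of the list, 13.25 to 14.02 with CDDO-Im and 13.46 to 13.97 with D3T, overlapped. Of 9 endothelial markers 0 passed in limma (3 lower at an unadjusted p under 0.05, and 1 higher by the exact Wilcoxon test with a 1.5-fold minimum), with summed levels of 12.01 to 12.09 with CDDO-Im and 12.28 to 12.37 with D3T that did not overlap. Of 8 stellate cell markers 1 (Lrat) was lower (0 when centred, or without Wt CDDO-Im 10 replicate 3 or Wt D3T replicate 1 or 4), with summed levels of 13.5 to 13.62 and 13.52 to 13.78. The part of these cells in the other differences was not tested.

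Whether the difference between the compounds depended on Nrf2 was asked with the same doses in Nrf2-null mice. Nfe2l2 read 2.73 to 3.03 in these 8 Nrf2-null mice, against 10.94 to 11.65 in the 8 Wt mice. In Nrf2-null liver 607 genes (6.26%) passed the same test, 300 of them higher with CDDO-Im (3.09%) and 307 lower (3.17%). This number was 217 without Nrf2-null CDDO-Im 10 replicate 3, 354 and 355 without replicates 1 and 4, and 364 without Nrf2-null D3T replicate 3. The difference between the compounds itself differed between the genotypes for 568 genes (5.86%), with 186 more positive in Wt liver (1.92%) and 382 more negative (3.94%). The more negative ones were 197 without Wt CDDO-Im 10 replicate 1, 226, 223 and 210 without Wt D3T replicates 1, 2 and 3, and 253 without Nrf2-null CDDO-Im 10 replicate 4, and the more positive ones 118 without Wt D3T replicate 3. This comparison was added after the data had been examined. The animal numbers of the 2 Nrf2-null groups also fell in separate runs.

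Agbl5 had the clearest dependence on genotype among the named genes: 6.14, 6.1, 5.92 and 6.21 with D3T and 6.64, 6.17, 6.56 and 5.78 with CDDO-Im in Nrf2-null liver, where the groups overlapped, a difference of 0.20 against −2.15 in Wt liver (genotype difference −2.35, adjusted p = 4.3e-07). Abcc2 read 12.32, 12.32, 12.54 and 12.34 with D3T and 12.6, 12.18, 12.56 and 12.23 with CDDO-Im in Nrf2-null liver. The Wt difference of 0.78 was 0.01 there (genotype difference 0.78, adjusted p = 0.0048). Ugt2b35 was lower in all Nrf2-null mice (11.41 to 11.95), and its compound difference was 0.21 (genotype difference 0.79, adjusted p = 0.0068). Mgst3 differed by 0.56 in Nrf2-null liver (adjusted p = 0.12), on the other side of 0 from Wt liver (genotype difference −1.23, adjusted p = 0.02). Tob2 read 10.75, 10.54, 10.45 and 11.15 against 10.96, 10.79, 11.01 and 10.5 (genotype difference 1.61, adjusted p = 0.018), Rpl14 differed by 0.15 (−1.24, adjusted p = 0.0054), Srrm2 by 0.09 (0.55, adjusted p = 0.0079) and Ddx5 by −0.27 (0.84, adjusted p = 0.0018). These 8 kept the call when each of the 16 mice was left out, but that of Tob2 was lost with the mean of its probe sets or the one of largest variance.

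A further 4 named genes passed the test of the genotype difference but lost it without single mice: Nfil3 (−1.95, adjusted p = 0.039), 9130409I23Rik (2.06, 0.036), Ebp (−0.56, 0.028) and Cd68 (−1.36, 0.039), with adjusted p up to 0.098, 0.092, 0.071 and 0.097. For Ebp these mice were replicate 4 of Wt CDDO-Im 10 and of Nrf2-null D3T and replicates 1 and 2 of Wt D3T. For 9130409I23Rik they were replicates 1 and 4 of Wt CDDO-Im 10, 1 and 2 of Wt D3T, 1 and 3 of Nrf2-null CDDO-Im 10 and 3 and 4 of Nrf2-null D3T. Nfil3 lost its call without Wt CDDO-Im 10 replicate 1 or 4, Wt D3T replicate 1, 2 or 3, Nrf2-null CDDO-Im 10 replicate 2 or 4 or Nrf2-null D3T replicate 2, 3 or 4. Cd68 lost it without Wt CDDO-Im 10 replicate 1, 2 or 4, Wt D3T replicate 1, 2 or 3, Nrf2-null CDDO-Im 10 replicate 1 or 4 or Nrf2-null D3T replicate 3 or 4. 9130409I23Rik was itself low in Nrf2-null vehicle liver, with a mean of 3.71 against 10.28 in Wt vehicle liver.

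Acaca differed between the compounds in Nrf2-null liver too, at 10.27, 9.67, 10.35 and 9.17 with D3T and 8.68, 8.9, 8.73 and 8.69 with CDDO-Im. These groups did not overlap, and the difference of −1.11 ± 0.22 (adjusted p = 0.003) passed without each mouse (up to 0.021). It was the only one of 7 such named genes to do so. Upp2 read 11.25, 11.16, 10.49 and 12.21 against 13.06, 12.19, 13.04 and 12.5, a difference of 1.42 (adjusted p = 0.014) that was lost without Nrf2-null CDDO-Im 10 replicate 3 or Nrf2-null D3T replicate 3 (up to 0.062). Atf5 differed by −0.97 (adjusted p = 0.013) and Hectd2os by 2.30 (adjusted p = 0.02), both lost without Nrf2-null CDDO-Im 10 replicate 3 or Nrf2-null D3T replicate 4 (up to 0.051 and 0.065), and that D3T mouse read 4 for Hectd2os where the others read 7.53 to 9.52. Ppargc1b differed by 1.33 (adjusted p = 0.026), lost without Nrf2-null CDDO-Im 10 replicate 1 or 3 or Nrf2-null D3T replicate 3 (up to 0.1). Plin5 differed by −0.66 (adjusted p = 0.032), lost without Nrf2-null CDDO-Im 10 replicate 1, 3 or 4 or Nrf2-null D3T replicate 2 or 4 (up to 0.088). Elovl6 differed by −1.23 (adjusted p = 0.037) and passed only without Nrf2-null CDDO-Im 10 replicate 2 or Nrf2-null D3T replicate 4 (up to 0.15 without the others). It read 12.91, 12.12, 13.09 and 10.45 with D3T and 10.71 to 11.33 with CDDO-Im. The same low D3T mouse read 8.54 for Lss (the others 10.75 to 11.51) and 10.54 for Fasn (the others 13.54 to 13.88). In Nrf2-null liver Lss differed by −0.66 (adjusted p = 0.28) and Fasn by −0.79 (adjusted p = 0.33). Fdft1, also low in that mouse (11.49), differed by 0.13 (adjusted p = 0.85).

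For the 7 named genes that passed in Nrf2-null liver the genotype difference ranged from −0.41 (Elovl6) to 0.40 (Upp2). It did not pass its test, which does not show that the genotypes were equal. Pdk4 differed by −0.80 in Nrf2-null liver (adjusted p = 0.51) and Arntl by −0.97 (adjusted p = 0.39), with genotype differences of −2.66 (adjusted p = 0.081) and −1.97 (adjusted p = 0.19) that did not pass. The Nrf2-null CDDO-Im mice were spread widely, at 6.88, 9.54, 6.45 and 9.49 for Arntl and 6.9, 8.19, 6.6 and 9.42 for Pdk4. The lowest Nrf2-null vehicle values were 6.06 for Arntl, 5.54 for Pdk4 and 7.48 for Chka, each within the range of the Wt CDDO-Im mice. The highest were 10.09, 9.27 and 11.44. Low levels of these genes thus also occurred without either compound, and the reason was not tested.

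**Figure D5:**
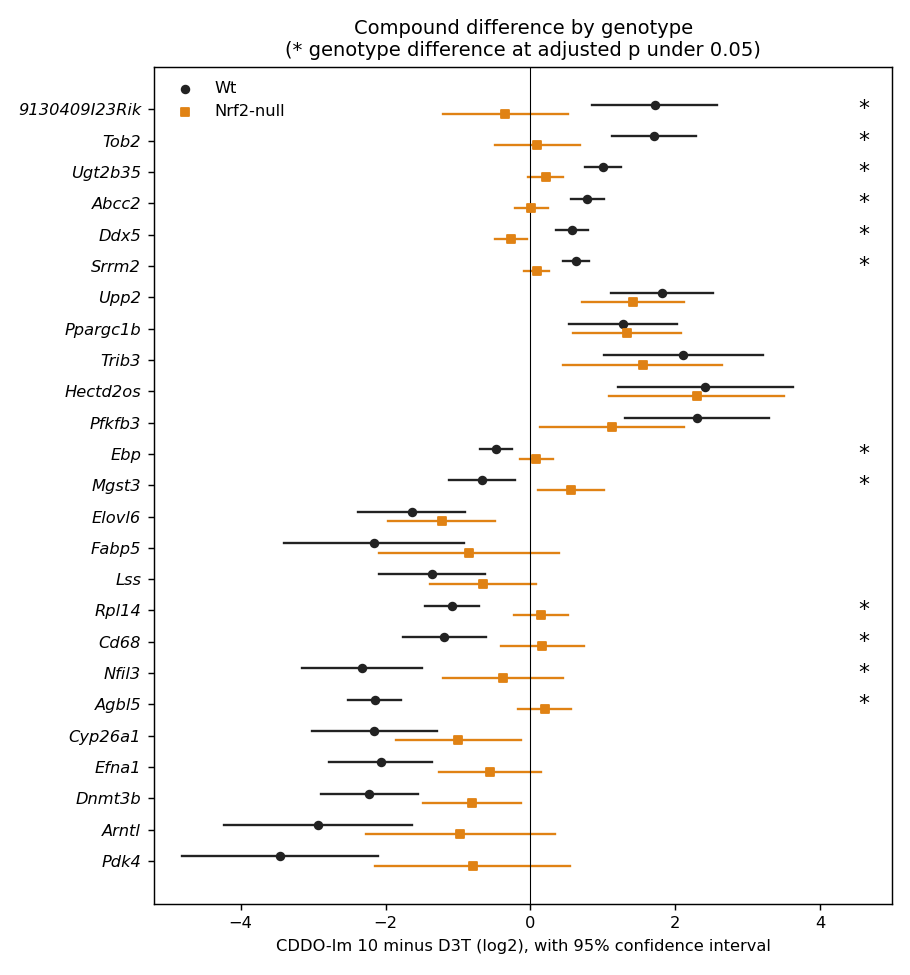
Difference between CDDO-Im and D3T (log2) with its 95% confidence interval in Wt (black circles) and Nrf2-null liver (orange squares), 4 mice per group. Agbl5, Abcc2 and Tob2 lie away from 0 in Wt liver and near it in Nrf2-null liver, while Upp2, Ppargc1b and Hectd2os lie above 0 in both.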

How the data were processed

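The authors labelled amplified liver RNA of 40 mice for 3′ expression arrays and deposited log2 intensities that they had made with GCRMA, which corrects background by probe GC content, normalizes quantiles and summarizes probe sets. Neither its version nor which arrays were normalized jointly is stated in the labels or methods. Of 45037 probe sets, 34945 had 1 gene symbol, 932 several and 9160 none here. Probe sets at log2 4 or more on 3 arrays of any group were kept (18935), and each gene was its kept probe set of highest mean (9695 genes). Limma 3.58.1 in R 4.3.3 was fitted to the 10 groups with trend and robust eBayes. The number of mice limits the precision. In a test on simulated data of 9695 genes, the script recovered 90 of 100 genes changed by 1 on the log2 scale and 99 of 100 changed by 2. There were 8 false calls among the genes left unchanged. The simulated noise was normal and independent between genes and arrays, so shifts of whole arrays and outlying mice were not covered. Named genes were the 12 largest rises and falls without overlap, up to 4 members per list, genes the study singled out, Nfe2l2 and Keap1, and detoxification genes with narrow intervals; some were left out. The lists and genes were chosen with earlier results of these data known. The genotype comparison and the fits without single Nrf2-null mice were added after the data had been examined. Alternatives covered the expression minimum, scaling, arrays fitted, variance model, array weights, choice of probe set, replicate block, the study's exact Wilcoxon test with a 1.5-fold minimum, and each mouse left out. Nothing was tested as a set.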

Additional observations from a re-analysis of the deposited data

Results flagged for a closer look

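In 7 of 138 groups of 4 mice checked (the D3T and CDDO-Im mice for each of 69 named genes), 1 mouse stood apart from the other 3 by Dixon's criterion, and chance flags about 1 group in 20. With D3T these were replicate 3 for Mvd (8.39, the others 9.33 to 9.43) and for Gpam (14.62, the others 14.27 to 14.32) and replicate 4 for Acaca (9.06, the others 9.73 to 9.84). With CDDO-Im they were replicate 3 for Abcc2 (13.1, the others 13.22 to 13.24), replicate 1 for Agbl5 (5.57, the others 5.77 to 5.78) and for Srsf3 (10.52, the others 10.91 to 10.93), and replicate 2 for Mcm5 (5.41, the others 4.92 to 4.96).

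The difference between the compounds differed between Wt and Nrf2-null liver, by limma's test of the interaction with Benjamini-Hochberg adjustment, for 12 of the named genes. It was more positive in Wt liver for Ugt2b35 (0.79), Abcc2 (0.78), Tob2 (1.61), 9130409I23Rik (2.06), Srrm2 (0.55) and Ddx5 (0.84). It was more negative in Wt liver for Agbl5 (−2.35), Mgst3 (−1.23), Ebp (−0.56), Nfil3 (−1.95), Rpl14 (−1.24) and Cd68 (−1.36). For 8 of the 12 the call held without each of the 16 mice.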

How the results depend on the processing

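Of the 55 named genes that passed in Wt liver, 34 kept their direction and call under every alternative, and leaving out Wt D3T replicate 1 ended the most calls (11). Elovl6 turned to 0.15 (adjusted p = 0.91) on its probe set of largest variance. The 1809 genes were 1154 to 1794 without single mice, 638 (154 higher and 484 lower) by the exact Wilcoxon test with a 1.5-fold minimum, whose smallest p with 4 mice a group is 0.029, and 153 higher and 478 lower in limma with that minimum. The lower genes were 731 to 1400 without single mice. With the arrays centred 714 were higher and 886 lower. The compound difference was more positive in Wt than in Nrf2-null liver for 112 genes with no expression minimum, 336 with arrayWeights, 321 with the probe set of largest variance and 118 to 226 without single mice. It was more negative for 207 with no expression minimum, 668 with arrayWeights and 197 to 561 without single mice. The genes that differed in Nrf2-null liver were 339 with no expression minimum, 1236 with arrayWeights and 217 to 823 without single mice. Replicate numbers of the D3T and CDDO-Im mice did not pair them, with correlations of their deviations from −0.04 to 0.10 and 1 of 4 pairs correlating best with its own number. With the number as a replicate block 1791 genes passed (477 higher and 1314 lower), 582 depended on genotype, 620 passed in Nrf2-null liver, and all 55 named calls were kept. The contrasts with vehicle were not recomputed under the alternatives. The cause of these changes was not tested. Probe sets of 38 genes passed in opposite directions, and levels near background compress differences, so fold values of dim genes are the least certain.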
